A study of Mus musculus with 9 samples.

Results

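The genes described here are 10 markers of astrocytes, namely *Gfap*, *Aqp4*, *Slc1a2*, *Slc1a3*, *Aldh1l1*, *Aldoc*, *Gja1*, *Gjb6*, *Glul* and *Sox9*. They were picked by symbol and found in the expression table by their Ensembl identifiers. All 10 passed the filter on low values and are among the 14239 genes tested. RNA-seq was performed on the striatum of 9 male C57BL/6J mice aged 10 to 12 weeks, with 1 library per mouse. The groups were 3 wild-type (WT) mice, 3 mice heterozygous for a targeted *Shank3* allele (HET) and 3 homozygous *Shank3* knock-out mice (KO). The allele is that of the *Shank3B* line, in which a run of internal exons is targeted and the remaining exons are left in place, and the mice were littermates. Values are normalized counts per gene, and they summed to between 30830020 and 33790296 per library. The depth in reads is not known, and precision was taken from how far mice of a genotype differed.

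Astrocytes are the main glial cells of grey matter. They clear glutamate from synapses, convert it to glutamine for return to neurons, buffer potassium and water through endfeet on blood vessels, and are coupled to each other by gap junctions. In the striatum they surround the synapses that cortical and thalamic axons make on medium spiny neurons, the cells in which *Shank3* scaffolds the postsynaptic density.

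*Shank3* (ENSMUSG00000022623, chromosome 15 of GRCm38, 89499623 to 89560261, plus strand) had 7209, 8812 and 6043 normalized counts in the WT libraries. The HET libraries had 7575, 7098 and 8050, and the KO libraries 10237, 10798 and 10578. Each library labelled KO was thus above every library labelled WT or HET, and HET overlapped WT. The value sums the whole gene, including the exons that the deletion leaves in place, so it cannot serve as a check of the genotype labels, and groups are named here as they are labelled. The log2 fold change (log2FC) was 0.54 in KO (95% interval 0.25 to 0.82, exact permutation p = 0.1) and 0.06 in HET (−0.23 to 0.34, p = 0.9). By p in limma, *Shank3* ranked 5 of 14239 genes in KO and 8474 in HET, and its adjusted p was 0.999 in both (Benjamini-Hochberg adjustment).

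All 10 markers of medium spiny neurons were above the filter. *Pde10a*, a phosphodiesterase of these neurons and their most abundant marker here, ran from 19599 normalized counts in KO replicate 3 to 39151 in WT replicate 2. All 10 markers of cortical excitatory neurons were above the filter as well, so passing it does not tell striatum from cortex. *Slc17a7*, the most abundant of the cortical markers, ran from 26609 normalized counts in HET replicate 1 to 43336 in KO replicate 3. Markers of the choroid plexus, which borders the striatum at the ventricle, were low. All 8 together summed to between 149 and 310 normalized counts in a library, with *Clic6* the most abundant (up to 207) and *Ttr* at most 26.6, and 4 of the 8 were tested.

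Some libraries stood apart before any marker was compared. The first principal component of all genes tested held 33.6% of the variance, and on it HET replicate 3 and KO replicate 3 scored 33.8 and 34.2 while the other libraries lay between −17.0 and 1.35. WT replicate 3 differed from the other WT libraries in its cell type markers. Its medium spiny neuron markers summed to 76037 normalized counts against 134186 and 150517 in WT replicates 1 and 2, and its oligodendrocyte markers to 265545 against 172345 and 161725. Its cortical excitatory neuron markers summed to 63800 against 48248 and 53729. KO replicate 3 went further on the neuronal lists, with the lowest medium spiny neuron sum of all libraries (66431) and the highest cortical sum (71572), but had the lowest oligodendrocyte sum (140472). What sets these libraries apart was not tested. In bulk tissue, fewer astrocytes and less RNA per astrocyte cannot be told apart, nor can a larger share of astrocytes and a smaller share of neurons.

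In limma, no gene passed the adjusted threshold in any comparison, so the counts of 0 below do not set the astrocyte markers apart from other genes. The study itself, with DESeq2 and a further correction of the p-values, reported differentially expressed genes in KO and in HET, *Shank3* among those in KO. In KO against WT, 0 of 10 had an adjusted p under 0.05 (limma with Benjamini-Hochberg adjustment over all genes tested), where the background over all genes was 0%. At an unadjusted p under 0.05 there were 0 of 10, against 0.822% of all genes, and 0 of 10 had libraries that did not overlap between the genotypes, against 4.54%. The smallest adjusted p of any gene in this comparison was 0.912. Of the 10 log2FC values, 7 were above 0 and 3 under it, with a median of 0.06 against 0.0047 over all genes tested. The median was −0.0079 without KO replicate 3 and 0.16 without WT replicate 3.

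In HET against WT the counts were again 0 of 10 at an adjusted p under 0.05 in limma, beside 0% of all genes, and 0 of 10 at an unadjusted p under 0.05, beside 1.11%. The libraries did not overlap for 1 of 10 markers, *Glul*, beside 4.45% of all genes. The log2FC was above 0 for 7 markers and under 0 for 3, with a median of 0.10 against −0.0027 over all genes. The median was 0.04 without WT replicate 1 and 0.21 without WT replicate 3. Both comparisons use the same WT libraries, so their directions are not independent.

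In KO against HET, 0 of 10 markers passed the adjusted threshold in limma (0% of all genes) and 0 of 10 the unadjusted one (1.31%). None of the 10 had libraries without overlap, beside 4.45% of all genes. The median log2FC was −0.03, against −0.001 over all genes, with 2 markers above 0 and 8 under it. Leaving out HET replicate 1 gave −0.13 and KO replicate 3 gave −0.11, while leaving out HET replicate 3 gave −0.0077. The replicate number was also used as a block, because deviations of same-numbered HET and KO libraries were correlated. This does not show that replicates 1 and 2 were paired. The block was fitted over all 9 libraries and so covers WT too, which was not taken as paired by number. With it, 318 of all genes had an unadjusted p under 0.05 against 186 without it, and the count for the astrocyte markers stayed at 0.

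**Figure D1:**
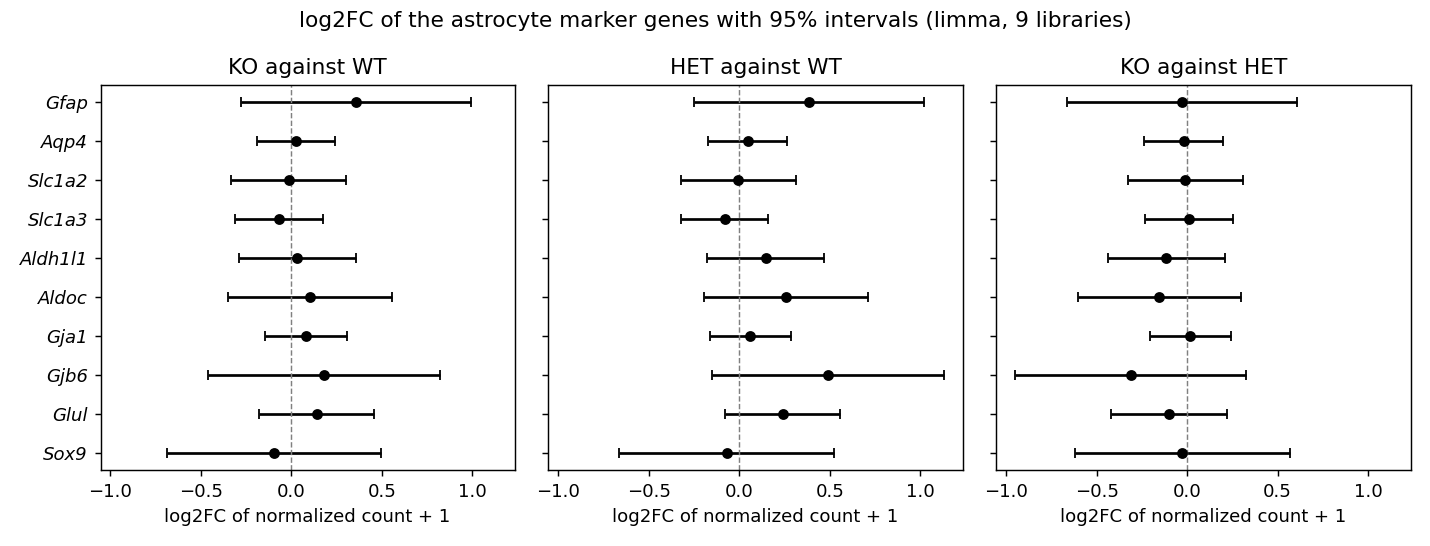
Each panel plots the log2FC of the 10 astrocyte markers in 1 comparison, on the scale of log2(normalized count + 1), with points for the estimate and bars for the 95% interval from limma over 9 libraries. Every interval includes 0, and *Gfap*, *Gjb6* and *Sox9* have the widest intervals.

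Glutamate uptake is carried out by *Slc1a2* (GLT-1) and *Slc1a3* (GLAST), the glutamate transporters of astrocytes. *Slc1a2* (ENSMUSG00000005089, chromosome 2, 102658659 to 102790784, plus strand) had 81344, 89232 and 93966 normalized counts in WT. It had 90372, 80134 and 93138 in HET and 86333, 82042 and 93419 in KO. The libraries of the genotypes lay over each other, with the lowest and the highest at most 1.17-fold apart. The log2FC was −0.01 in KO (95% interval −0.33 to 0.30) and −0.0054 in HET (−0.32 to 0.31). The exact two-sided permutation test gave p = 0.9 in each, where 3 libraries against 3 cannot give less than 0.1.

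*Slc1a3* (ENSMUSG00000005360, chromosome 15, 8634124 to 8710764, minus strand) had 16351, 15782 and 17909 normalized counts in WT. The HET libraries had 16794, 16393 and 14196, and the KO libraries 16705, 16489 and 14536. The lowest of all were HET replicate 3 and KO replicate 3, while the other HET and KO libraries lay within the range of WT. The log2FC was −0.07 in KO (95% interval −0.31 to 0.17) and −0.08 in HET (−0.32 to 0.16), with an exact permutation p of 0.6 in each. Without HET replicate 3 and KO replicate 3 it was −0.0052 and −0.0056. Both *Slc1a3* and *Shank3* lie on chromosome 15, far apart.

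Glutamate taken up by astrocytes is turned into glutamine by glutamine synthetase, the product of *Glul* (ENSMUSG00000026473, chromosome 1, 153899944 to 153909723, plus strand). Its WT libraries had 43524, 44349 and 45761 normalized counts. The HET libraries had 47152, 49438 and 62393, and the KO libraries 51028, 43697 and 52951. Each HET library was above each WT library, and KO replicate 2 was inside the WT range. The log2FC in HET was 0.24 (95% interval −0.08 to 0.56, adjusted p = 0.999 from limma), and the exact two-sided permutation test gave p = 0.1, the smallest that it allows. Without HET replicate 3 the log2FC in HET was 0.12. In KO it was 0.14 (95% interval −0.18 to 0.46, exact permutation p = 0.3), with 0.08 when KO replicate 3 was left out and 0.22 when KO replicate 2 was. The level of *Glul* is uncertain because 23.4% of the 31-base stretches of its main transcript also occur in transcripts of other genes, the pseudogene *Glns-ps1* first among them.

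Gap junctions between astrocytes are built from connexin 43 and connexin 30, encoded by *Gja1* and *Gjb6*. *Gja1* (ENSMUSG00000050953, chromosome 10, 56377330 to 56402513, plus strand) had 4096, 4052 and 4988 normalized counts in WT, 4592, 4765 and 4305 in HET and 4886, 4522 and 4426 in KO. All HET and KO libraries lay between the lowest and the highest WT library. The log2FC was 0.08 in KO (95% interval −0.15 to 0.31, exact permutation p = 0.6) and 0.06 in HET (−0.16 to 0.29, p = 0.7). Without WT replicate 3, the highest library, it was 0.18 and 0.16, and without WT replicate 2, the lowest, 0.03 and 0.0094.

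*Gjb6* (ENSMUSG00000040055, chromosome 14, 57123303 to 57133611, minus strand) varied far more. Its WT libraries had 699, 744 and 1119 normalized counts, its HET libraries 1120, 938 and 1540, and its KO libraries 1017, 623 and 1336. The highest library was 2.47-fold above the lowest, which was KO replicate 2, and in each genotype replicate 3 was the highest. The log2FC in HET was 0.49 (95% interval −0.15 to 1.13, exact permutation p = 0.2), the largest among the markers in that comparison. It was 0.70 without WT replicate 3, where the unadjusted p was 0.0449 and the adjusted p 0.9998 in limma, and 0.30 without HET replicate 3. In KO it was 0.18 (95% interval −0.46 to 0.82, exact permutation p = 0.7), and it was −0.07 without KO replicate 3 and 0.39 without WT replicate 3.

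The water channel of astrocyte endfeet is encoded by *Aqp4* (ENSMUSG00000024411, chromosome 18, 15389496 to 15410982, minus strand). It had 2630, 2433 and 2652 normalized counts in WT, 2419, 2994 and 2578 in HET, and 2479, 2682 and 2698 in KO. The libraries of all genotypes overlapped, and HET replicates 1 and 2 were the lowest and the highest of all. The log2FC was 0.03 in KO (95% interval −0.19 to 0.24, exact permutation p = 0.5) and 0.05 in HET (−0.17 to 0.26, p = 0.9), the narrowest intervals among the markers.

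*Gfap* (ENSMUSG00000020932, chromosome 11, 102887336 to 102900912, minus strand) encodes the intermediate filament protein that astrocytes raise in injured tissue. It had 1791, 1822 and 3867 normalized counts in WT, 2288, 3841 and 3195 in HET and 2762, 3443 and 2779 in KO. Every HET and KO library was above WT replicates 1 and 2, and every one was below WT replicate 3, which was 2.14-fold above the geometric mean of the other WT libraries. The log2FC was 0.36 in KO (95% interval −0.28 to 0.99) and 0.38 in HET (−0.25 to 1.02), with an exact permutation p of 0.6 in each.

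The result for *Gfap* turned on WT replicate 3. Leaving it out gave 0.72 in KO (standard error 0.20, unadjusted p = 0.00564) and 0.75 in HET (standard error 0.20, unadjusted p = 0.0045), and the adjusted p was still 0.9999 and 0.9998 in limma. Without WT replicate 1 it was 0.17 and 0.20. WT replicate 3 is also the library with few medium spiny neuron transcripts and many oligodendrocyte, ependymal and subventricular transcripts among WT, and the part of these differences in its *Gfap* value was not tested.

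**Figure D2:**
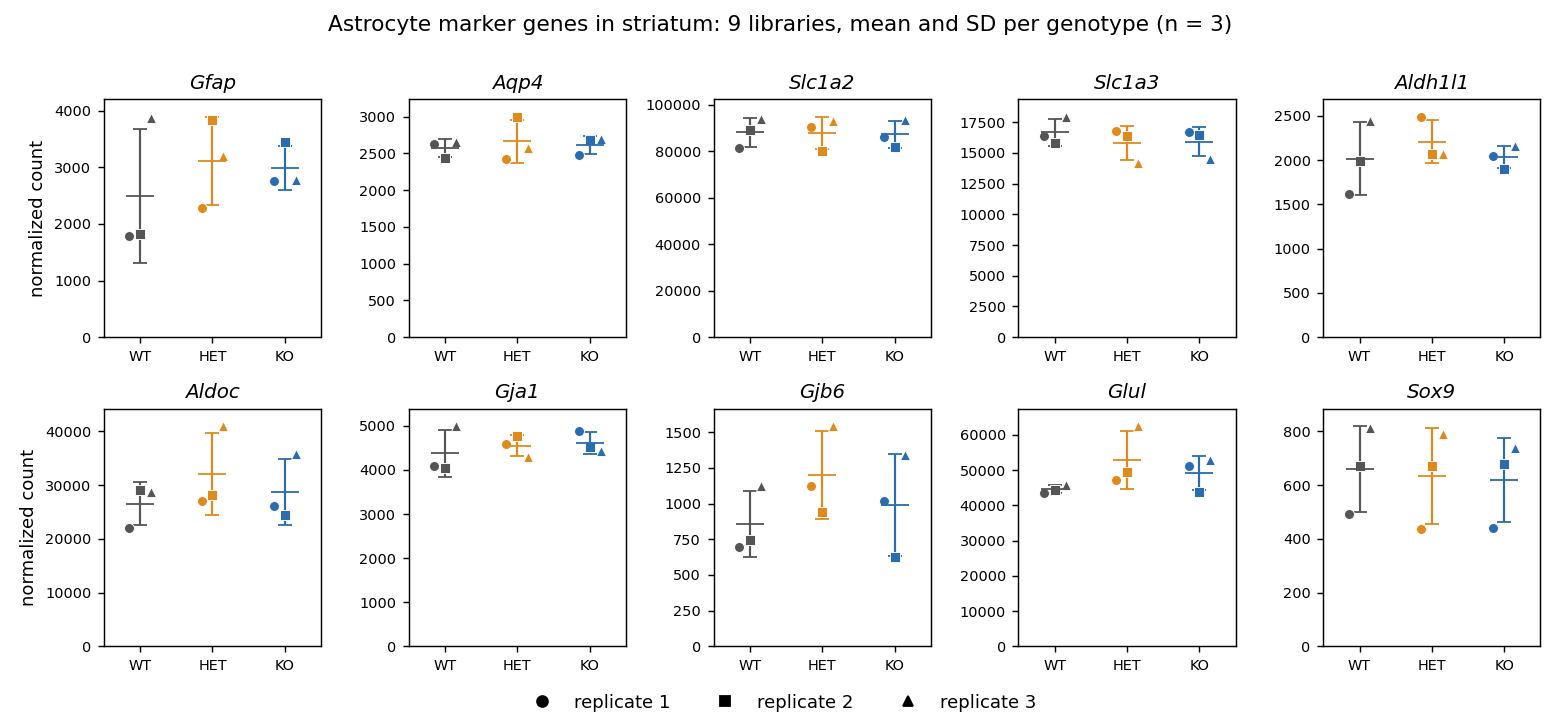
Normalized counts of the 10 astrocyte markers are plotted for each of 9 libraries, with the replicate number shown by the symbol and the mean and SD of each genotype (n = 3) by the bars, on axes that start at 0. *Gfap* of WT replicate 3 stands above WT replicates 1 and 2, and *Aldoc*, *Gjb6* and *Glul* are highest in HET replicate 3.

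Among the metabolic markers, *Aldh1l1* encodes a folate enzyme that marks astrocytes throughout the brain, and *Aldoc* the aldolase of their glycolysis. *Aldh1l1* (ENSMUSG00000030088, chromosome 6, 90486427 to 90600203, plus strand) had 1612, 1993 and 2437 normalized counts in WT, 2485, 2064 and 2073 in HET and 2044, 1901 and 2157 in KO. All KO libraries lay within the WT range, and in HET the highest library was just above it. The log2FC was 0.03 in KO (95% interval −0.29 to 0.36, exact permutation p = 0.9) and 0.15 in HET (−0.18 to 0.47, p = 0.4), and 0.18 and 0.29 without WT replicate 3. Without WT replicate 1 it was −0.12 and −0.0031.

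*Aldoc* (ENSMUSG00000017390, chromosome 11, 78322968 to 78327781, plus strand) had 21951, 29066 and 28747 normalized counts in WT. The HET libraries had 27107, 28217 and 40941, and the KO libraries 26050, 24419 and 35838. HET replicate 3 and KO replicate 3 were the highest of all, and the other HET and KO libraries lay within the WT range. The log2FC was 0.26 in HET (95% interval −0.20 to 0.71, exact permutation p = 0.6) and 0.10 in KO (−0.35 to 0.56, p = 0.8). Without those libraries it was 0.07 and −0.06.

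*Sox9* (ENSMUSG00000000567, chromosome 11, 112782224 to 112787760, plus strand) encodes a transcription factor that starts glial development and stays on in adult astrocytes. It had 493, 670 and 812 normalized counts in WT, 438, 671 and 789 in HET, and 440, 677 and 738 in KO. The genotypes overlapped almost completely, and the spread lay between the libraries of a genotype, with replicate 1 the lowest and replicate 3 the highest in each. The log2FC was −0.10 in KO (95% interval −0.69 to 0.50) and −0.07 in HET (−0.66 to 0.52), with an exact permutation p of 0.8 in each. It was 0.07 and 0.10 without WT replicate 3. What the replicate numbers share was not tested.

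Between KO and HET the largest log2FC among the markers was that of *Gjb6*, −0.31 (95% interval −0.95 to 0.33, exact permutation p = 0.5). This interval and this permutation test do not use the replicate numbers. The KO library was below the HET library of the same number in all 3 pairs for *Gjb6*. The block on these numbers lowered its standard error from 0.29 to 0.14, with an unadjusted p of 0.0508 and an adjusted p of 0.9996 in limma. Leaving out KO replicate 2 gave −0.0098, and leaving out KO replicate 3 gave −0.56. *Aldoc*, *Aldh1l1* and *Glul* followed with −0.15, −0.11 and −0.10, and the remaining markers lay between −0.03 and 0.02. *Aldoc* was also lower in KO in all 3 pairs, and the block lowered its standard error from 0.20 to 0.13 (unadjusted p = 0.27, adjusted p = 0.9996 in limma). The pairs went both ways for the markers other than *Gjb6* and *Aldoc*. Libraries of KO and HET overlapped for all 10 markers.

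Levels of different genes were compared per kilobase of their main transcript. In WT, *Glul* was the highest of the markers with 15954 ± 405 normalized counts per kilobase (SD, n = 3). It was above *Aldoc*, with 9543 ± 1443, in every library. *Aldoc* was above *Slc1a2*, with 7605 ± 550, within each library, though their ranges over the 9 libraries overlapped. *Slc1a3* had 4007 ± 265, below *Slc1a2* and above the rest in every library. *Gja1* with 1376 ± 166 was above *Gfap* with 942 ± 449 within each library, though their ranges over the 9 libraries overlapped. *Aqp4*, *Aldh1l1* and *Gjb6*, with 509 ± 23.8, 482 ± 98.9 and 406 ± 110, could not be put in order. *Sox9* was the lowest, with 159 ± 38.6. With the length of all annotated exons in place of the main transcript, *Gja1* moved from rank 5 to rank 7, below *Gfap*. The first 4 and the last 2 kept their ranks.

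The markers differed widely in how much they varied between mice of 1 genotype. The SD within genotypes was 0.44 on the log2 scale for *Gfap*, 0.44 for *Gjb6* and 0.40 for *Sox9*, larger than that of 89.3%, 89.3% and 86.7% of all genes tested. *Slc1a2*, *Aqp4*, *Slc1a3* and *Gja1* had SDs of 0.11 each on this scale, below the median of 0.19 over all genes. A change in the first group must therefore be larger than in the second to be seen with 3 mice a genotype.

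The markers varied together only in part. Over the 9 libraries, 34 of their 45 pairs had a Pearson r above 0, with a median of 0.28, from −0.74 for *Slc1a3* with *Aldoc* to 0.85 for *Aldoc* with *Glul*. Against the mean of the other markers, *Slc1a3* had an r of −0.34 and the other 9 had r above 0. Without the 2 libraries farthest from the median, the r of *Slc1a3* was −0.0079, and the others lay between 0.22 for *Sox9* and 0.51 for *Gja1*. WT replicate 3 had the highest value of 5 markers, *Gfap*, *Slc1a2*, *Slc1a3*, *Gja1* and *Sox9*, and was above the mean of the 9 libraries for 9. HET replicate 3 had the highest value of *Aldoc*, *Gjb6* and *Glul* and the lowest of *Slc1a3*. WT replicate 1 had the lowest value of *Gfap*, *Aldh1l1*, *Aldoc* and *Glul* and was above the mean for 2 markers. The summed normalized counts of the 10 markers were 174492, 190143 and 202259 in WT, 194768, 189456 and 225146 in HET and 193744, 180495 and 210878 in KO, so that the genotypes overlapped.

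HET replicate 3 and KO replicate 3 deviated in the same direction for 7 of 10 markers. Against the other libraries of their genotype, *Aldoc* was 1.48-fold and 1.42-fold higher in them, and the log2 difference was 0.59 and 0.75 for *Gjb6*, 0.54 and 0.43 for *Sox9*, 0.37 and 0.17 for *Glul* and 0.13 and 0.15 for *Slc1a2*. *Slc1a3* was at 0.856-fold and 0.876-fold, and *Gja1* at 0.92-fold and 0.942-fold. The directions differed for *Gfap* (0.11 and −0.15), *Aqp4* (−0.06 and 0.07) and *Aldh1l1* (−0.13 and 0.13). In WT replicate 3 all 10 markers were above the mean log2 value of the other WT libraries. The difference ran from 0.06 for *Glul* to 1.10 for *Gfap*, with *Gjb6* at 0.63 and *Slc1a2* at 0.14. *Aldoc* was still lower there than in WT replicate 2, with 28747 against 29066 normalized counts. Across genes, which are not independent, the Spearman correlation between GC content and the deviation from the mean was 0.147 in HET replicate 3, 0.17 in KO replicate 3 and 0.126 in WT replicate 2. It was −0.239, −0.177 and −0.149 in replicate 1 of WT, HET and KO. The part of GC content in these deviations was not tested.

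**Figure D3:**
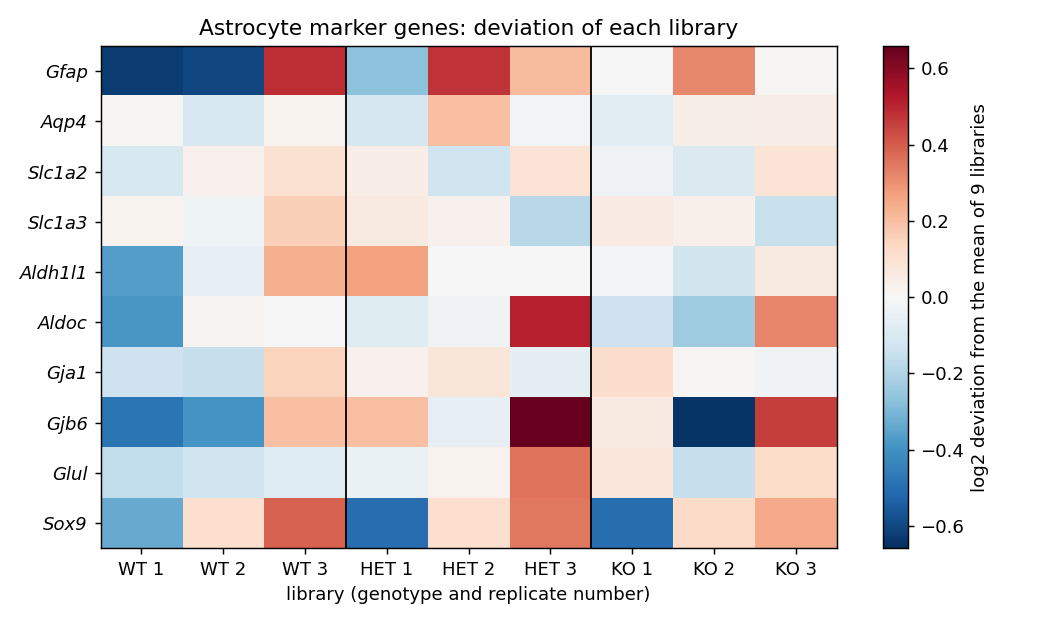
Colours show, for each of 10 astrocyte markers (rows) and 9 libraries (columns), the deviation of log2(normalized count + 1) from the mean over the libraries, red above and blue below it. *Gjb6* ranges from −0.65 in KO replicate 2 to 0.66 in HET replicate 3, and *Slc1a2* stays between −0.13 and 0.10.

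Ratios between markers within a library do not depend on the scaling between libraries. The log2 ratio of *Gjb6* to *Gja1* was −2.38 ± 0.20 in WT (SD, n = 3), −1.95 ± 0.44 in HET (SD, n = 3) and −2.28 ± 0.57 in KO (SD, n = 3). That of *Glul* to *Slc1a2* was −0.98 ± 0.07 in WT, −0.74 ± 0.18 in HET and −0.83 ± 0.08 in KO. Over 6 ratios and 3 comparisons, 18 exact two-sided permutation tests gave p between 0.2 and 0.9, and the adjusted p was 0.9 in each. The largest difference was that of *Gjb6* to *Gja1* in HET against WT, 0.43 with p = 0.2 in the exact permutation test, and it was 0.19 without HET replicate 3. The log2 ratio of *Gfap* to *Aldh1l1* was 0.23 ± 0.40 in WT, 0.47 ± 0.53 in HET and 0.55 ± 0.27 in KO, and those of *Slc1a3* to *Slc1a2*, *Aqp4* to *Aldh1l1* and *Aldoc* to *Aldh1l1* differed from WT by at most 0.11 in size.

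A further 42 astrocyte genes were all tested, and 0 of them had an adjusted or an unadjusted p under 0.05 in limma in any comparison. Over all genes the unadjusted share was 0.822% in KO, 1.11% in HET and 1.31% in KO against HET, so that counts of 0 in lists of this size do not differ from the background. Their median log2FC was 0.0071 in KO, 0.06 in HET and −0.04 in KO against HET (−0.005, 0.05 and −0.05 without HET replicate 3 and KO replicate 3). *Sparcl1*, a secreted synapse-organizing protein and the most abundant of them, had 41372 ± 4338 normalized counts in WT (SD, n = 3), 41802 ± 4187 in HET (SD, n = 3) and 40920 ± 754 in KO (SD, n = 3). The claudin gene *Cldn10* ranked first of them by p in HET, with a log2FC of 0.32. *Mfge8*, whose product marks cells for engulfment, ranked first by p in KO, with 0.23.

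Of 37 genes known from reactive astrocytes, 28 were tested, and 0 had an adjusted p under 0.05. *Lcn2*, *Timp1*, *Cxcl10*, *Tgm1* and *Ptx3* were below the filter, with at most 11.3 normalized counts in any library, and *Serpina3n*, *H2-D1*, *Iigp1* and *Slc10a6* were not analysed here. At an unadjusted p under 0.05 there were 0 genes in KO and 0 in HET against WT, and 3 of 28 in KO against HET (1 higher and 2 lower), beside 1.31% of all genes. The list had a median of −0.03 for KO and 0.14 for HET against WT, and −0.08 for KO against HET. Without HET replicate 3 and KO replicate 3 these medians were −0.04, 0.09 and −0.06. The 3 genes past the unadjusted threshold, *C3*, *Cp* and *Fbln5*, were chosen after their values were seen. The complement gene *C3* had 6.19, 19.1 and 10.0 normalized counts in WT, 7.93, 7.20 and 5.67 in HET and 9.81, 76.2 and 22.1 in KO, so that every KO library was above every HET library and KO replicate 2 was the highest of all. For *Stat3*, which drives the reactive state, the log2FC was −0.03 in both.

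Other lists cover the pathways around the markers, with the same shares over all genes. Among 22 other genes that handle glutamate and glutamine, 0 passed either threshold in any comparison in limma, with a median of 0.01 for KO and 0.0084 for HET (−0.05 and −0.03 without HET replicate 3 and KO replicate 3). The log2FC of the neuronal transporter gene *Slc1a1* was −0.10 in KO and −0.11 in HET, and the vesicular transporter gene *Slc17a8*, with the smallest unadjusted p in KO, −0.40 and 0.02. Among 12 other gap junction genes, 0 passed either threshold in limma, with medians of 0.0016 and 0.04 (0.07 and 0.11 without HET replicate 3 and KO replicate 3). The smallest unadjusted p in HET was that of *Gjb1*, the connexin of oligodendrocytes, with a log2FC of 0.40.

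Of 15 genes of the endfoot complex that anchors the water channel, 0 had an adjusted p under 0.05. At an unadjusted p under 0.05 there was 1 of 15, the syntrophin gene *Sntb1* in HET against WT, beside 1.11% of all genes. It had 72.4, 61.6 and 80.4 normalized counts in WT and 47.1, 37.1 and 48.5 in HET, without overlap (log2FC −0.68, unadjusted p = 0.0145, adjusted p = 0.999 in limma). In KO it had 59.9, 72.4 and 45.4 and overlapped both. Over the list the median was 0.05 for KO and 0.003 for HET (0.02 and 0.0099 without HET replicate 3 and KO replicate 3). The 6 intermediate filament genes beside *Gfap* had medians of 0.03 and −0.05 (0.0001 and −0.07 without those libraries). The 20 gliogenic transcription factor genes had medians of 0.05 and −0.02. Both lists had 0 genes past either threshold in limma in any comparison. Among them, *Vim*, chosen after its values were seen, had 0.27 as its log2FC in KO and 0.08 in HET, and *Id3*, with the smallest unadjusted p in KO, −0.39 and −0.21.

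Markers of other cell types were read beside the astrocyte markers. Of 10 medium spiny neuron markers, 9 had a log2FC under 0 in KO, with a median of −0.31, against 0.04 in HET. Without HET replicate 3 and KO replicate 3 these medians were −0.11 and 0.07. Their sums were 134186, 150517 and 76037 normalized counts in WT, 134857, 104548 and 113976 in HET and 112609, 97469 and 66431 in KO, and 0 passed the unadjusted threshold in limma. All 10 oligodendrocyte markers had a log2FC above 0 in HET, with a median of 0.35, against 0.05 in KO. The same libraries left out, the medians were 0.30 and 0.25, so that the difference between HET and KO rested largely on KO replicate 3. Their sums were 172345, 161725 and 265545 in WT, 226932, 257102 and 250413 in HET and 226123, 248857 and 140472 in KO, with *Mbp* the most abundant and 0 genes past the unadjusted threshold in limma. The part of these cell types in the values of the astrocyte markers was not tested.

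For microglia, 9 of 10 markers were tested, and their median log2FC was −0.03 in KO and 0.07 in HET, with sums from 12296 to 14137 normalized counts. Both medians were 0.03 without HET replicate 3 and KO replicate 3. Cortical excitatory neuron markers had medians of 0.0052 in KO and −0.07 in HET, and the KO median was −0.10 without those libraries. Endothelial markers had medians of −0.0007 in KO and 0.12 in HET. Those of pericyte and smooth muscle markers were 0.05 and 0.14, and those of oligodendrocyte precursor markers 0.07 and 0.10. Without HET replicate 3 and KO replicate 3 the KO medians of these 3 lists were 0.0087, −0.0081 and 0.11, and the HET medians 0.08, 0.02 and 0.06. In all lists of this paragraph 0 genes passed either threshold in limma. The part of these cells in the values of the astrocyte markers was not tested.

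To find genes that varied like the markers, each other gene was compared with the mean deviation of the 10 markers over the 9 libraries, as a description with no test. The highest Pearson r was that of *1110008P14Rik*, 0.972 (Spearman rho 0.95), followed by *Eps15*, 0.964 (rho 0.95), and *Arl2*, 0.96 (rho 0.917). *Plau* and *Adh5* had r of 0.952 and 0.937. Without WT replicate 1 and HET replicate 3, which lay farthest from the median, r was between 0.903 and 0.97 for the 5 genes. These are the highest values over all genes tested, and the libraries share the differences in tissue and processing described above.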

How the data were processed

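Per the methods of the study, RNA was sequenced from stranded mRNA libraries, and the deposited signal is normalized counts per gene. The authors made it with Salmon 0.9.1 on GRCm38, with correction for GC bias, and DESeq2 1.19.11 size factors. Whole reads were not recovered, so no count test was run. Values were analysed as log2(normalized count + 1) with limma 3.58.1 in R 4.3.3 (trend in the variance prior, genotype as the only term), for genes with at least 10 in at least 3 libraries. Adjustment was by Benjamini-Hochberg over 14239 genes with a threshold of 0.05, and fold changes of low genes are understated on this scale. Exact two-sided permutation tests compared single values and ratios, without pairing by replicate number. All 9 columns were used and 0 were left unused. Symbols were found for 15457 genes, and coordinates and lengths come from GENCODE for GRCm38. The markers and the 17 other lists were chosen with earlier results of these data known. Genes named from a list are its most abundant gene, those with the smallest p against WT and those not tested, with *Shank3*, all markers and the 5 genes most like them. *Vim*, *C3*, *Cp* and *Fbln5* were chosen after their values were seen. The fit was tested on simulated data.

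Whether equal replicate numbers mark paired libraries was examined through the correlation, over all genes, of deviations from the genotype means. It was 0.515, 0.281 and 0.506 for HET with KO, and HET and KO were therefore taken as paired by number. It was 0.243, −0.221 and 0.0244 for WT with KO, and 0.319, −0.0142 and 0.00538 for WT with HET.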

Additional observations from a re-analysis of the deposited data

How the results depend on the processing

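The analysis was repeated with other choices of filter, scaling, variance model, block and libraries, and in no fit with a test did limma put a gene below 0.05 after adjustment (0 genes). The ratio of group means gave values and no test. Counting each gene, comparison and choice separately, the log2FC of a marker or of *Shank3* changed sign 48 times, and some medians and ratios near 0 did so too. Causes were not tested. The count of markers at an unadjusted p under 0.05 in HET against WT was 1 (*Gjb6*) with the replicate number as a block and from 0 to 2 with single libraries left out. In KO against WT that range was 0 to 1. With the block, all genes at that threshold were 310 in KO and 365 in HET against WT, where 117 and 158 were found without it.

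Without HET replicate 3 and KO replicate 3 together, log2FC in KO against WT was −0.0106 for *Aldh1l1*, −0.0644 for *Aldoc* and −0.0686 for *Gjb6*, and in KO against HET 0.0567 for *Gfap* and 0.0089 for *Sox9*. With array weights it was −0.0387 for *Aldoc* in KO and −0.0237 for *Shank3* in HET against WT, and 0.0686 for *Gfap* and 0.0247 for *Sox9* in KO against HET. *Slc1a2* in KO against HET was 0.0022 with equal totals and 0.006 with quantile normalization.

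With single libraries left out, log2FC in KO against WT ranged from −0.0127 to 0.0658 for *Aqp4*, −0.0715 to 0.0325 for *Slc1a2*, −0.1175 to 0.1805 for *Aldh1l1*, −0.0644 to 0.2124 for *Aldoc*, −0.0686 to 0.4815 for *Gjb6* and −0.2892 to 0.1318 for *Sox9*. In HET against WT it ranged from −0.0755 to 0.1966 for *Shank3*, −0.0413 to 0.1124 for *Aqp4*, −0.0623 to 0.0597 for *Slc1a2*, −0.0031 to 0.2949 for *Aldh1l1* and −0.2632 to 0.1733 for *Sox9*. In KO against HET it ranged from −0.2339 to 0.1396 for *Gfap*, −0.0858 to 0.068 for *Aqp4*, −0.0743 to 0.0343 for *Slc1a2*, −0.0634 to 0.0754 for *Slc1a3*, −0.3216 to 0.036 for *Aldoc*, −0.0244 to 0.0513 for *Gja1*, −0.179 to 0.023 for *Glul* and −0.2692 to 0.2017 for *Sox9*.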

Other observations

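Markers of cells near the ventricle varied with the library. The 8 ependymal markers all had a log2FC above 0 in KO against WT, with a median of 0.25 (0.58 without HET replicate 3 and KO replicate 3) and 0 genes at an adjusted p under 0.05 or an unadjusted p under 0.05 in limma. Their sums were 452, 460 and 699 normalized counts in WT, 482, 662 and 619 in HET and 666, 892 and 394 in KO, so that KO held both the highest and the lowest library. The 8 markers of subventricular neuroblasts and cycling cells summed to 3169, 2216 and 4427 in WT, 3004, 2707 and 2779 in HET and 3524, 4956 and 2611 in KO. How the dissection contributed to this was not tested.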
